A study of Mus musculus with 40 samples.

Results

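The effect of Mbd3 deletion was measured in B cell-biased lymphoid progenitors (BLPs) sorted from mouse bone marrow. The members were the 10 BLP libraries of a series of 40, 5 from mice with the genotype Mbd3_Del/Del (Mbd3del) and 5 from mice with the genotype Mbd3_Flox/Flox (control), and they were taken by their labels. All mice were on a mixed C57BL6/129Ola background and 46 to 51 days old, and control mice also carried the floxed allele, in intact form. The labels define a BLP by surface Sca-1, c-Kit, high Flt3, the interleukin 7 receptor (IL-7Ra) and Ly6D, in the absence of lineage antigens and B220. No source used here gives the recombinase, its promoter or the deleted exons. Each library was 1 pool of 100 cells per mouse according to its label, made by Smart-seq2, a method that copies whole transcripts from few cells and does not mark their strand. The series' design text gives 150 cells for these pools. In pools, fewer cells of a type and less RNA per cell cannot be told apart.

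Mbd3 is a subunit of NuRD, a complex that moves nucleosomes through its Chd3 or Chd4 helicase and removes acetyl groups from histones through Hdac1 and Hdac2. Mbd3 and its close relative Mbd2 occupy the complex in turn, and both help to hold its remodelling and deacetylase parts together. BLPs are lymphoid progenitors that have begun to express B cell genes such as Ebf1 under interleukin 7 signals. NuRD is known from work in mice to act with Ikaros family factors at lymphocyte genes.

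Transcripts of the surface markers that the gate selects for were present. Ly6d averaged 9902 counts per 1000000 gene counts (CPM) in Mbd3del BLPs and 7785 CPM in control BLPs, Il7r 597.3 and 1005 CPM, and Flt3 427.8 and 503.1 CPM. Kit, the gene of c-Kit, averaged 60.7 CPM in Mbd3del BLPs and 44.8 CPM in control BLPs, where haematopoietic stem cells of the 2 genotypes had 669.6 (Mbd3del) and 587.9 CPM (control). Slamf1 and Procr, markers of stem cells, averaged 0.0612 and 0.108 CPM in Mbd3del BLPs and 1.69 and 0.253 CPM in control BLPs. Gene counts per library ran from 3547381 to 8201998 in Mbd3del and from 3593226 to 8368790 in control BLPs. Mitochondrial transcripts took 3.69% to 5.96% of counts over the 10 libraries, and 3 counts in a library equalled 0.359 to 0.846 CPM. Control mouse10372 and mouse10381 had sex-linked transcripts that go against their labelled sex, and results are also given without both.

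Of 10772 genes that passed the expression filter, 8 differed between Mbd3del and control BLPs at an edgeR adjusted p under 0.05, which is 0.0743% of those tested. Cd63, Cd68, Ly6c2, Rrm2, Prr13 and Nckap1 were higher (0.0557%), and Mbd3 and Cpq were lower (0.0186%). At an unadjusted p under 0.05 there were 895 genes (8.31%), 467 higher (4.34%) and 428 lower (3.97%), and 47.7% of all genes had a positive fold change. In 163 genes (1.51%) all 5 Mbd3del libraries lay above all 5 control libraries, and in 115 genes (1.07%) they all lay below. The edgeR count rested on single libraries. It was 43 when control mouse10357 was left out, 0 for control mouse10380, 3 for any of Mbd3del mouse10365, mouse10361, mouse10360 and control mouse10358, and 5 for Mbd3del mouse10376 or mouse10384. Mbd3, Cd63 and Cd68 kept their calls in 9 of these 10 fits, Rrm2, Ly6c2, Prr13 and Cpq in 2 and Nckap1 in 1. DESeq2 called 112 genes higher (1.04%) and 46 lower (0.427%). With its newer estimator edgeR called 46 higher (0.427%) and 12 lower (0.111%), and limma voom called 3 higher (0.0278%) and 0 lower. Here and below, edgeR without mention of the newer estimator is the main fit. Without control mouse10372 and mouse10381 edgeR called 1 gene, Tjp1, a tight junction scaffold named here because it was the single call. The adjusted p of Mbd3, Cd63 and Cd68 then lay between 0.0517 and 0.0530, and that of the other 5 genes between 0.107 and 0.221.

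**Figure D1:**
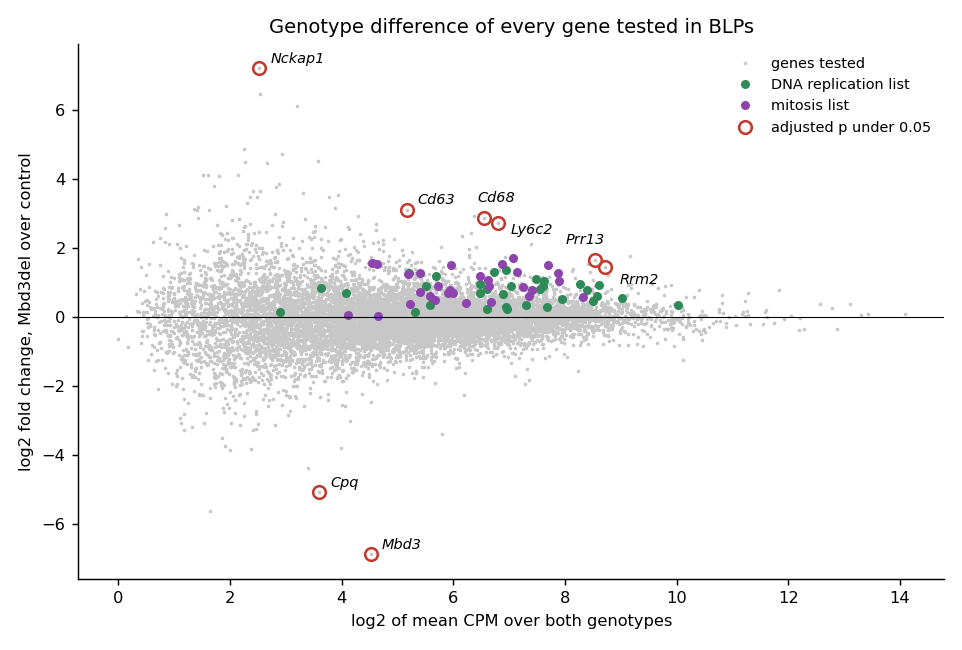
Genotype difference of the 10772 genes tested in BLPs, as the log2 fold change of Mbd3del over control against the log2 of the mean CPM over both genotypes. Red circles mark the 8 genes with an edgeR adjusted p under 0.05, green points the 32 DNA replication genes and purple points the 30 mitosis genes, all of which lie above 0.

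Mbd3 transcripts were nearly missing from every Mbd3del library. It had 0, 1.41, 0.193, 0.488 and 0 CPM in the 5 Mbd3del BLP libraries and 72.6, 31.8, 41.7, 51.5 and 31.2 CPM in the 5 control BLP libraries (chromosome 10 from 80392539 to 80399550, minus strand, GRCm38). The groups were far apart, with 10 counts in all Mbd3del against 1537 in all control BLP libraries. The log2 fold change was -6.87 ± 0.85 (SE) with an edgeR adjusted p = 0.0105.

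Of the 14 other NuRD genes 13 were tested and edgeR called none. DESeq2 and the newer edgeR estimator called 1, Mta3, lower (0.427% and 0.111% of all genes). Mta3, which encodes one of 3 alternative Mta scaffold subunits, had 428.7, 437.2, 400.8, 424.6 and 340.5 CPM in Mbd3del BLPs and 782.3, 833.7, 535.4, 764.6 and 655.4 CPM in control BLPs. Its groups did not overlap, but its log2 fold change of -0.79 ± 0.15 (SE) had an edgeR adjusted p = 0.0880 and a DESeq2 adjusted p = 0.000291. The other Mta genes had log2 fold changes of -0.49 (Mta1) and 0.07 (Mta2), the helicase genes -0.61 (Chd3) and -0.19 (Chd4), the deacetylase genes 0.32 (Hdac1) and -0.02 (Hdac2), and Mbd2 -0.12, all with overlapping groups. Chd5, a helicase gene of neurons, was at 0 in all 10 libraries.

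Among genes of lysosomes and late endosomes, Cd63 and Cd68 rose in Mbd3del BLPs, and edgeR called no other of the 28 lysosome genes listed. DESeq2 called 4 of the 28 higher, against 1.04% of all genes. Cd63 encodes a tetraspanin of the late endosome and of secretory vesicles. It had 40.8, 46.2, 79.5, 102.2 and 52.0 CPM in Mbd3del BLPs and 5.35, 7.05, 5.93, 8.05 and 11.4 CPM in control BLPs. The lowest Mbd3del library was above the highest control library, and the log2 fold change was 3.12 ± 0.41 (SE) with an edgeR adjusted p = 0.0105. Cd68, a heavily glycosylated lysosomal membrane protein abundant in myeloid cells, had 215.9, 111.3, 113.8, 272.1 and 111.7 CPM in Mbd3del BLPs and 22.8, 11.1, 22.7, 23.9 and 34.8 CPM in control BLPs. Its groups did not overlap either, and Mbd3del mouse10360 and mouse10376 stood above the other 3. The log2 fold change was 2.87 ± 0.39 (SE), with an edgeR adjusted p = 0.0105. Cd63 lies on chromosome 10 from 128900989 to 128912822 (plus strand) and Cd68 on chromosome 11 from 69664213 to 69666153 (minus strand).

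Of the 28 lysosome genes, all of which were tested, 18 had a positive fold change, and the median was 0.09 against -0.03 over all genes. Besides these 2 genes, 6 were higher at an unadjusted p under 0.05, against 4.34% of all genes. The cathepsin protease genes Ctsb, Ctsl and Ctsz had log2 fold changes of 0.94, 0.86 and 0.82, and the progranulin gene Grn 1.20 (edgeR adjusted p = 0.332 for Ctsb and 0.323 for Grn). Lamp1 and Lamp2, the most abundant proteins of the lysosomal membrane, had 0.43 and 0.82. Lgmn, an asparaginyl protease, went the other way at -0.70 (edgeR adjusted p = 0.481), and the gene of the lysosomal regulator Tfeb had -0.55. Of 13 tetraspanin genes tested, 6 had a positive fold change with a median of 0.00. Cd9, Cd53 and Cd81 had log2 fold changes of 0.38, 0.04 and -0.20, and edgeR called no tetraspanin gene besides Cd63. DESeq2 also called Tspan32 lower (0.427% of all genes), at a log2 fold change of -1.15 (edgeR adjusted p = 0.322).

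**Figure D2:**
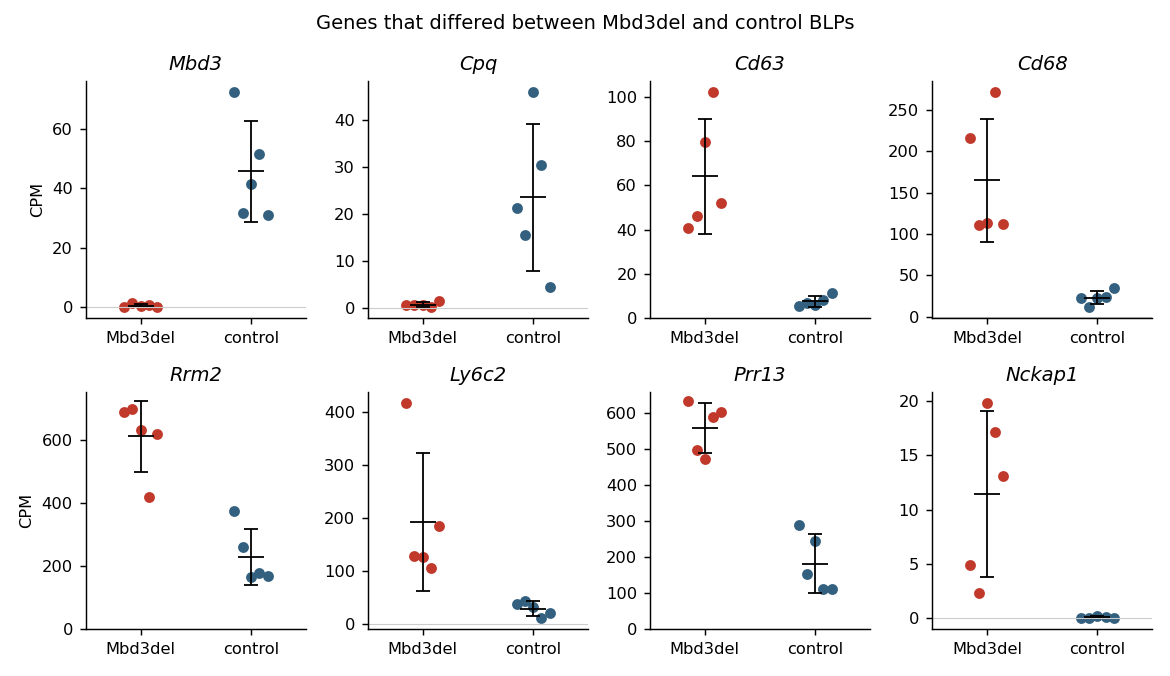
CPM of the 8 called genes in each BLP library, with Mbd3del left and control right in each panel and the mean and SD drawn as bars (n = 5 each). In no panel do the groups overlap, and in the Rrm2 panel they come close (lowest Mbd3del library at 420.5 CPM, highest control library at 373.9 CPM).

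Rrm2 encodes the small subunit of ribonucleotide reductase, which supplies deoxynucleotides in S phase. It had 691.2, 699.1, 631.0, 420.5 and 618.7 CPM in Mbd3del BLPs and 373.9, 259.8, 164.7, 176.7 and 169.5 CPM in control BLPs. Every Mbd3del library was above every control library, although Mbd3del mouse10376 and control mouse10357 came close. The log2 fold change was 1.44 ± 0.22 (SE), with an edgeR adjusted p = 0.0384. The partner subunit Rrm1 had a log2 fold change of 0.77 ± 0.23 (SE, edgeR adjusted p = 0.323) with overlapping groups, and Rrm2b, the subunit used outside S phase, had 0.03.

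All 32 DNA replication genes and all 30 mitosis genes were tested, and all 62 had a positive fold change. The median log2 fold change was 0.75 for DNA replication and 0.89 for mitosis, against -0.03 for all genes. None of the 62 was called by the main edgeR fit, and 17 and 14 were higher at an unadjusted p under 0.05 (4.34% of all genes). The newer edgeR estimator called 2 and 2 higher (0.427% of all genes), and DESeq2 7 and 6 (1.04% of all genes). In 6 replication genes and 3 mitosis genes all Mbd3del libraries lay above all control libraries (1.51% of all genes). Such genes are transcribed together in cycling cells, so the members are not independent. The lists were chosen with results of these data known, and the direction of the cell cycle genes is no independent support.

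Among the genes that assemble replication origins, Cdc6, which loads the Mcm helicase, had 149.6, 154.2, 232.7, 118.6 and 92.5 CPM in Mbd3del BLPs and 70.3, 88.1, 70.6, 52.9 and 24.5 CPM in control BLPs. Orc6, a subunit of the origin recognition complex, averaged 241.9 ± 20.04 CPM in Mbd3del BLPs and 113.6 ± 31.7 CPM in control BLPs (SD, n = 5 each). Both had groups that did not overlap, with edgeR adjusted p = 0.174 for Cdc6 and 0.104 for Orc6. Cdc45, a gene of the activated helicase, also had no overlap, with a log2 fold change of 1.36 ± 0.43 (SE, edgeR adjusted p = 0.341). The helicase genes Mcm2 to Mcm7 had smaller values, between 0.30 and 0.57. At the fork, the polymerase clamp gene Pcna averaged 421.3 ± 50.4 CPM in Mbd3del BLPs and 248.7 ± 44.6 CPM in control BLPs, the clamp loader gene Rfc4 402.9 ± 84.99 and 211.2 ± 35.5 CPM, and the primase gene Prim1 508.8 ± 110.9 and 272.3 ± 65.4 CPM (SD, n = 5 each). None of these 3 overlapped between groups, and their edgeR adjusted p lay between 0.121 and 0.147.

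Among mitosis genes, Ccna2, which encodes cyclin A2, had 213.3, 235.4, 243.1, 148.7 and 181.8 CPM in Mbd3del BLPs and 129.8, 85.7, 49.2, 20.2 and 34.0 CPM in control BLPs. Cdk1, the kinase that drives entry into mitosis, had 130.8, 210.0, 150.7, 193.9 and 178.4 CPM in Mbd3del BLPs and 103.1, 84.5, 73.5, 35.1 and 9.74 CPM in control BLPs. In both genes control mouse10357 was the highest control, and the groups stayed apart (edgeR adjusted p = 0.135 for Ccna2 and 0.273 for Cdk1). The spindle checkpoint gene Mad2l1 was the remaining gene without overlap, at a log2 fold change of 1.06 ± 0.24 (SE, edgeR adjusted p = 0.135). Plk1 and Ttk, kinases of mitosis, had values near 0, at 0.08 and 0.04.

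The regulators of G1 went in both directions, where 10 of 16 tested genes were positive and the median was 0.24. Rbl1 encodes p107, a pocket protein of the Rb family that binds E2F factors, and Cdkn2d the Cdk4 and Cdk6 inhibitor p19. They had log2 fold changes of 1.43 ± 0.33 and 1.16 ± 0.25 (SE, edgeR adjusted p = 0.139 and 0.121), with no overlap between groups. Of the 16 genes DESeq2 called 2 higher (1.04% of all genes), and the newer edgeR estimator 1, Rbl1 (0.427% of all genes). Of the D cyclins, Ccnd3 averaged 405.4 CPM in Mbd3del and 158.3 CPM in control BLPs, whereas Ccnd2 averaged 335.5 and 544.7 CPM (edgeR adjusted p = 0.481 and 0.305). Myc averaged 365.3 CPM in Mbd3del and 638.4 CPM in control BLPs, and Cdk4 and Cdk6 had log2 fold changes of 0.32 and -0.19. Of the nucleotide supply genes 13 of 18 were positive with a median of 0.19. Tyms, Tk1, Dck and Dut, which serve thymidine and other deoxynucleotide synthesis, lay between 0.73 and 1.03. DESeq2 called 3 of the 18 higher, with Rrm2 among them (1.04% of all genes).

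**Figure D3:**
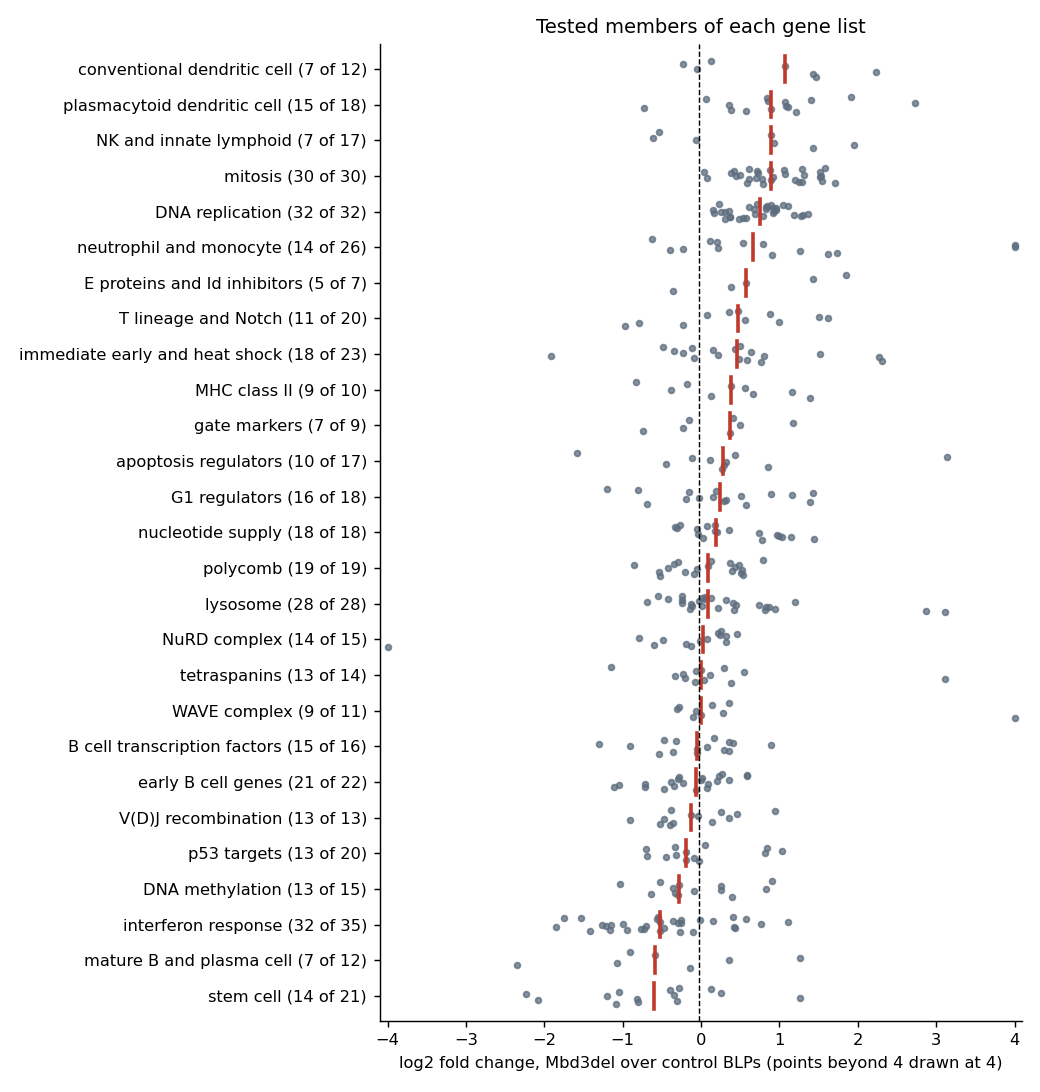
Log2 fold change of Mbd3del over control BLPs for each tested member of the gene lists with at least 5 tested members, with the number tested of all members in brackets. Red bars are list medians and the dashed line the median of all genes at -0.03; DNA replication and mitosis are the lists with no point below 0.

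The promoters of cell cycle genes are known for E2F sites, used in S phase genes, and for the cell cycle genes homology region (CHR) with CCAAT boxes, used in mitosis genes. The promoters of Rrm2, Cdk1, Ccnb2 and Cdc6 are shown because they belong to these 2 groups, and those of Cd63 and Cd68 because these 2 genes rose without being cell cycle genes. Each window runs from 250 bases before to 50 bases after the annotated start in RefSeq on GRCm38.p6, 5′ to 3′ on the gene's strand. The windows are chr12:24708004-24708303, plus strand for Rrm2; chr10:69352863-69353162, minus strand for Cdk1; chr9:70421505-70421804, minus strand for Ccnb2; chr11:98907901-98908200, plus strand for Cdc6; chr10:128909095-128909394, plus strand for Cd63; and chr11:69666121-69666420, minus strand for Cd68. Capitals mark a match on either strand to an E2F word (TTTGGCGC, TTTCGCGC, TTTCCCGC, TTTGGCGG, TTCCCGCC or TTGGCGCC), a CHR word (TTTGAA or TTCGAA) or CCAAT.
Rrm2: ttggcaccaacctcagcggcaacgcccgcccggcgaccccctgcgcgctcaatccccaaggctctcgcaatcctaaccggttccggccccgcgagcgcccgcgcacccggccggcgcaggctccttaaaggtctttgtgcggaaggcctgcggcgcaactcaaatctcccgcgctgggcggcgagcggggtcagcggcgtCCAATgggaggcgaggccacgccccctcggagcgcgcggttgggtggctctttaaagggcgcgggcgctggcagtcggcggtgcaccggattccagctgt
Cdk1: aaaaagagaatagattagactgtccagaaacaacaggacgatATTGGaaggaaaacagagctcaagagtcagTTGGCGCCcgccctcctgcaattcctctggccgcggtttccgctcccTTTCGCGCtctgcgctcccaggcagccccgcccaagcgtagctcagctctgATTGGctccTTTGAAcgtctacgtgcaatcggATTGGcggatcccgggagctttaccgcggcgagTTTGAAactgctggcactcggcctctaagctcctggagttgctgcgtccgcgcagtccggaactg
Ccnb2: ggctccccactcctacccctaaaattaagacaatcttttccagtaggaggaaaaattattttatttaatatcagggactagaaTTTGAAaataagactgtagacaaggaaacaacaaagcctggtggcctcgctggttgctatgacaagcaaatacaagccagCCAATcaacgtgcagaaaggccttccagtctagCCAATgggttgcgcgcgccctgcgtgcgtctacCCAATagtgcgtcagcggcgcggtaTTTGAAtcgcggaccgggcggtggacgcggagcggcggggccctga
Cdc6: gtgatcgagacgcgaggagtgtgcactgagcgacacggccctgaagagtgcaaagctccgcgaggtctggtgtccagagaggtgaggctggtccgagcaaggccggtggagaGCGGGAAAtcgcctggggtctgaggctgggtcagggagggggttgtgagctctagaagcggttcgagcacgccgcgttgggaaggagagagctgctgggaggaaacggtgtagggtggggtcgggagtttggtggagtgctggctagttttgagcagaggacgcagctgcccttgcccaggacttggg
Cd63: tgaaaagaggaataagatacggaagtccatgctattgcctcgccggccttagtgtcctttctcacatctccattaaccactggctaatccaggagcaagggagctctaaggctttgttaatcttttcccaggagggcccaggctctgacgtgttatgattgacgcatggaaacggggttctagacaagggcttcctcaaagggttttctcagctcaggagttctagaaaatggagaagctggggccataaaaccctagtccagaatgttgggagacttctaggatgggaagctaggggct
Cd68: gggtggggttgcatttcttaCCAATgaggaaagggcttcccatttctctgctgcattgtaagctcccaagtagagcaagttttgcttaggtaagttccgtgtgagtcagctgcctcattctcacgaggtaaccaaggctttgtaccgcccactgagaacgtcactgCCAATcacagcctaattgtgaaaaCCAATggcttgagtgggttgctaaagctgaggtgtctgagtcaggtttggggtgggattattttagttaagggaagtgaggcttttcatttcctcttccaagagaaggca

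Among all 27025 promoters of this length, 4.59% held an E2F word, 19.4% a CHR word and 37.9% CCAAT. Of the 26 DNA replication promoters that had a sequence, 14 held an E2F word (53.8%), 6 a CHR word (23.1%) and 16 CCAAT (61.5%). Of the 25 mitosis promoters 2 held an E2F word (8%), 19 a CHR word (76.0%) and 20 CCAAT (80.0%). The median CpG count was 22.5 in the DNA replication and 24 in the mitosis promoters, against 7 in all promoters. Every E2F word used contains a CpG, so its share in all promoters comes from windows with fewer CpG. The Cdk1 promoter held all 3 kinds, with 2 E2F words, 2 CHR words and 3 CCAAT boxes, and Ccnb2, the gene of cyclin B2, held 2 CHR words and 3 CCAAT boxes without an E2F word. No E2F or CHR word was in the windows of Rrm2, Cd63 or Cd68. The Cd63 window lies inside the span given above for that gene and not at its first base. Its letters therefore describe an internal annotated start. Rrm2 had 40 CpG dinucleotides in its window, more than 96.2% of promoters, whereas Cd63 had 6 and Cd68 had 4, close to the median of 7. A match describes letters and is not a bound site.

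Summed over its members, the DNA replication list took 7627, 8196, 7815, 7156 and 6047 CPM in Mbd3del BLPs and 5600, 5246, 4684, 3949 and 4224 CPM in control BLPs. The mitosis list took 3342, 4204, 4391, 4230 and 3527 CPM in Mbd3del BLPs and 3298, 2146, 2634, 867.1 and 1294 CPM in control BLPs. Neither sum overlapped between genotypes, but for mitosis Mbd3del mouse10360 was only just above control mouse10357. In ALPs, the stage before, the DNA replication sums ran from 4804 to 9928 CPM in Mbd3del and from 3584 to 7122 CPM in control libraries. In LMPPs they ran from 3804 to 7182 CPM in Mbd3del and from 3445 to 6539 CPM in control libraries. Median DNA replication sums were 6095 (Mbd3del) and 4620 CPM (control) in ALPs, and 5187 and 5410 CPM in LMPPs. Median mitosis sums were 2879 (Mbd3del) and 2869 CPM (control) in ALPs, and 2272 and 2260 CPM in LMPPs. Both lists overlapped between genotypes at both earlier stages. Whether the difference in these sums changed between stages was not tested.

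**Figure D4:**
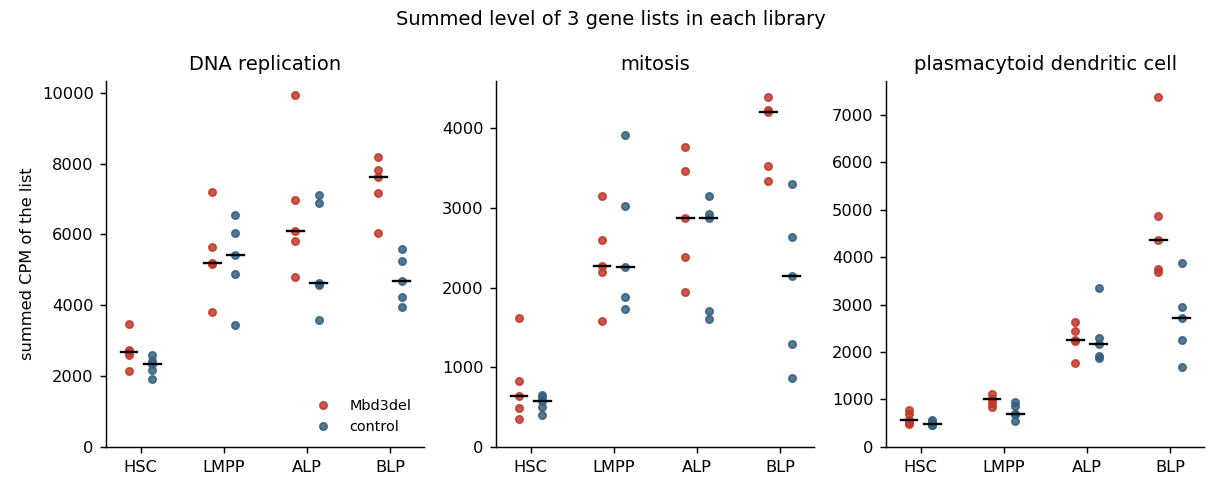
Summed CPM of the DNA replication, mitosis and plasmacytoid dendritic cell lists in each library of the 4 populations, Mbd3del left of control, with medians as bars. In BLPs the first 2 lists separate the genotypes (for DNA replication at least 6047 CPM in Mbd3del against at most 5600 CPM in control), and the third overlaps (from 3679 CPM in Mbd3del, up to 3880 CPM in control).

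Ly6c2 rose in Mbd3del BLPs, and it was the single edgeR call among the plasmacytoid dendritic cell genes. Of the 15 tested, DESeq2 called 5 higher (Ly6c2, Irf8, Siglech, Runx2 and Cd300c), against 1.04% of all genes. By edgeR 6 were higher at an unadjusted p under 0.05, against 4.34% of all genes. Ly6c2 encodes a surface protein of monocytes, plasmacytoid dendritic cells and some lymphocytes. It had 418.0, 128.3, 126.0, 105.8 and 184.6 CPM in Mbd3del BLPs and 38.8, 44.3, 31.4, 11.2 and 21.2 CPM in control BLPs. The groups did not overlap, and Mbd3del mouse10360 stood far above the other 4. The log2 fold change was 2.73 ± 0.43 (SE, edgeR adjusted p = 0.0384), and 2.25 without that mouse (edgeR adjusted p = 0.0939). Reads of Ly6c2 (chromosome 15 from 75108158 to 75111970, minus strand) may be shared with its near copy Ly6c1, so its count is uncertain.

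Of the 15 plasmacytoid dendritic cell genes tested of 18, 14 had a positive fold change and the median was 0.90, against -0.03 for all genes. Besides Ly6c2, Irf8, a transcription factor needed for dendritic cells and also used in early B cells, had no overlap between groups. It had 1609, 1053, 987.4, 1099 and 959.4 CPM in Mbd3del BLPs and 913.8, 724.1, 485.6, 480.8 and 521.3 CPM in control BLPs (log2 fold change 0.90 ± 0.20, SE, edgeR adjusted p = 0.139). Siglech, a lectin gene typical of these cells, averaged 605.6 ± 310.9 CPM in Mbd3del and 267.3 ± 137.4 CPM in control BLPs (SD, n = 5 each), with overlapping groups (edgeR adjusted p = 0.279). Runx2 and Tcf4, transcription factor genes of the same cells, had log2 fold changes of 1.08 and 0.38, and Irf7 was the 1 tested member below 0, at -0.72. The summed list ran from 3679 to 7370 CPM in Mbd3del BLPs and from 1679 to 3880 CPM in control BLPs. Mbd3del mouse10360 stood apart at 7370 CPM, with the other 4 between 3679 and 4863 CPM, and it was also far above them for Irf8. The toll-like receptor gene Tlr9 averaged 0.653 CPM in Mbd3del and 0.172 CPM in control BLPs, and Cd209d was at 0 in all 10 libraries. The part that such cells play in the difference was not tested.

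Of the conventional dendritic cell genes 5 of 7 tested, of 12, were positive with a median of 1.07, and of the neutrophil and monocyte genes 11 of 14 tested, of 26, with a median of 0.66. The last median was 1.01 without control mouse10372 and mouse10381, 1.18 without mouse10372 alone and 0.38 without control mouse10380, and the conventional dendritic cell median was 0.60 without Mbd3del mouse10360. Id2, an inhibitor of E proteins, had 74.0, 82.0, 59.6, 71.0 and 84.0 CPM in Mbd3del BLPs and 40.2, 30.2, 12.6, 27.5 and 29.8 CPM in control BLPs. Its groups did not overlap (log2 fold change 1.43 ± 0.31, SE, edgeR adjusted p = 0.121, DESeq2 adjusted p = 0.00236). The chemokine receptor gene Ccr2 and the Fc receptor gene Fcgr3 each averaged 9.21 CPM in Mbd3del BLPs, against 0.287 and 0.398 CPM in control BLPs, and in both 4 of 5 control libraries were at 0. The lectin gene Clec10a also had no overlap, at 25.6 ± 8.82 CPM in Mbd3del and 5.66 ± 5.24 CPM in control BLPs (SD, n = 5 each). The edgeR adjusted p of these 3 genes lay between 0.272 and 0.349. Of the 14 neutrophil and monocyte genes tested, the newer edgeR estimator called 1 higher (0.427% of all genes) and DESeq2 0. Summed over all 26 members, however, the neutrophil and monocyte list ran from 846.7 to 1585 CPM in Mbd3del and from 1151 to 1662 CPM in control BLPs. The sum of all 12 conventional dendritic cell genes overlapped as well. It ran from 496.2 to 802.0 CPM in Mbd3del and from 527.4 to 795.3 CPM in control BLPs.

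No macrophage gene passed the filter, and the 10 macrophage genes summed to at most 5.86 CPM in a Mbd3del library and 17.0 CPM in a control library, with Adgre1, Marco and Siglec1 at 0 in all 10. Megakaryocyte and platelet genes summed to at most 7.33 CPM in Mbd3del and 5.84 CPM in control BLPs. Of the erythroid list only Car2, a carbonic anhydrase gene, passed, at 105.7 CPM in Mbd3del and 48.0 CPM in control BLPs, with Gata1 at 0. The T cell genes Cd3e and Bcl11b and the plasma and mature B genes Ms4a1 and Cd40 were at 0 in all 10 libraries. Of 11 T lineage and Notch genes tested of 20, 8 were positive with a median of 0.48, and DESeq2 called 1 of the 11 higher (1.04% of all genes). Among them the kinase gene Lck averaged 223.7 ± 13.1 CPM in Mbd3del and 389.8 ± 150.8 CPM in control BLPs, and Thy1 10.5 ± 4.20 and 3.45 ± 1.52 CPM (SD, n = 5 each), both without overlap (edgeR adjusted p = 0.276 and 0.569).

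The remaining called genes were Nckap1, Cpq and Prr13. Nckap1 encodes a subunit of the WAVE complex, which starts actin branching at the cell edge. It had 4.85, 2.26, 19.9, 17.2 and 13.1 CPM in Mbd3del BLPs, against 0 CPM in 3 control BLP libraries and 0.148 and 0.128 CPM in the other 2. The 369 counts in Mbd3del against 2 in control BLPs gave a ratio of 203.3, whose 95% counting interval ran from 55.9 to 1685. The edgeR adjusted p was 0.0488, the nearest to the threshold, and the gene (chromosome 2 from 80500512 to 80581380, minus strand) overlaps the gene models Gm24461 and Gm13689. Nckap1l, the blood cell paralogue of Nckap1, averaged 145.2 CPM in Mbd3del and 157.2 CPM in control BLPs, with a log2 fold change of -0.10. Of the 9 WAVE genes tested 4 were positive and the median was -0.01.

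Cpq encodes a secreted carboxypeptidase. It had 0.606, 0.564, 0.579, 0.122 and 1.54 CPM in Mbd3del BLPs and 21.3, 15.7, 46.1, 30.5 and 4.45 CPM in control BLPs, so that each Mbd3del library was below each control library. The log2 fold change was -5.06 ± 0.85 (SE, edgeR adjusted p = 0.0478), on 20 counts in Mbd3del against 836 in control BLPs. Cpq spans chromosome 15 from 33083129 to 33594552 (plus strand) and overlaps 1700084J12Rik and Gm24476. Prr13, which encodes a proline-rich protein, had 631.9, 496.1, 471.8, 588.5 and 601.0 CPM in Mbd3del BLPs and 289.1, 152.7, 245.2, 110.1 and 109.9 CPM in control BLPs. Its groups did not overlap and its log2 fold change was 1.65 ± 0.27 (SE, edgeR adjusted p = 0.0422). It lies on chromosome 15 from 102459028 to 102462806 (plus strand), over Gm26518.

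The B cell lists held no gene called by edgeR, and DESeq2 called 1 of their genes, Irf8, higher (1.04% of all genes). Of 15 B cell transcription factor genes tested 7 were positive with a median of -0.05, of 21 early B cell genes 9 with a median of -0.07, and of 13 V(D)J recombination genes 5 with a median of -0.13. Ebf1, the factor that specifies the B lineage, had 171.0, 215.4, 98.2, 111.8 and 187.5 CPM in Mbd3del BLPs and 193.1, 244.2, 223.8, 201.9 and 278.6 CPM in control BLPs. The groups overlapped, with a log2 fold change of -0.53 ± 0.23 (SE, edgeR adjusted p = 0.560). Pax5, which commits cells to the lineage, averaged 8.23 CPM in Mbd3del and 8.79 CPM in control BLPs. Cd79a, a signalling chain of the B cell receptor, had a log2 fold change of -0.07, and the heavy chain gene Ighm 0.00.

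Lower values stood among the recombination genes. At an unadjusted p under 0.05, 4 of the 13 were lower (3.97% of all genes) and 1 was higher (4.34% of all genes). The recombinase gene Rag2 averaged 341.5 ± 81.1 CPM in Mbd3del and 492.4 ± 45.5 CPM in control BLPs, and Dntt, which adds bases at the joints, 4082 ± 874.7 and 5256 ± 784.6 CPM (SD, n = 5 each). Their edgeR adjusted p was 0.383 and 0.599. Xrcc6, the Ku70 gene of end joining, had 742.4, 1025, 1030, 731.4 and 909.4 CPM in Mbd3del BLPs and 1041, 1116, 1524, 1280 and 1210 CPM in control BLPs. These groups did not overlap, although by a narrow margin (edgeR adjusted p = 0.403). The gate marker gene Il7r had 737.3, 541.2, 554.8, 460.6 and 692.4 CPM in Mbd3del BLPs and 874.6, 866.0, 1555, 874.1 and 853.8 CPM in control BLPs. It also had no overlap, with a log2 fold change of -0.74 ± 0.21 (SE, edgeR adjusted p = 0.273). Of the 7 gate marker genes tested, edgeR called 0 and DESeq2 called 1 lower (0.427% of all genes). Ly6a, the gene of the gate marker Sca-1, averaged 230.9 CPM in Mbd3del and 102.5 CPM in control BLPs, with overlapping groups.

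No stem cell or interferon response gene was called by edgeR. DESeq2 called 1 stem cell gene lower (0.427% of all genes) and, of the interferon response genes, Ifi27l2a higher (1.04% of all genes). Of 14 stem cell genes tested of 21, 11 had a negative fold change and the median was -0.60. Hoxa9 and Meis1, homeobox genes of early progenitors, had log2 fold changes of -1.09 and -0.82, and Cd34 -1.05 (edgeR adjusted p from 0.279 to 0.518). Of 32 interferon response genes tested of 35, 25 were negative with a median of -0.52, and without control mouse10372 and mouse10381 the median was -0.27, or -0.28 without mouse10372 alone. The antiviral gene Mx2 averaged 6.90 ± 4.77 CPM in Mbd3del and 25.6 ± 4.83 CPM in control BLPs, and the RNA sensor gene Ddx58 12.6 ± 10.8 and 36.3 ± 6.91 CPM (SD, n = 5 each), both with no overlap. Ifi27l2a had no overlap in the other direction, at 157.5 ± 40.8 CPM in Mbd3del and 74.2 ± 25.5 CPM in control BLPs. The edgeR adjusted p of these 3 genes was 0.399, 0.615 and 0.175.

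Of the lists on chromatin and stress, polycomb genes had 10 of 19 positive and a median of 0.09, and DNA methylation genes 5 of 13 and -0.28. Genes of p53 targets had 4 of 13 positive and a median of -0.19, immediate early and heat shock genes 12 of 18 and 0.46, and apoptosis regulators 7 of 10 and 0.28. Of MHC class II genes 6 of 9 were positive with a median of 0.38. At an unadjusted p under 0.05, 0 were higher (4.34% of all genes) and 2 lower (3.97%). H2-DMa, which loads peptides, had no overlap on the lower side (log2 fold change -0.38 ± 0.17, SE, edgeR adjusted p = 0.545). Summed over all 10 members, the list averaged 1534 CPM in Mbd3del and 1948 CPM in control BLPs, with overlapping groups. Mature B and plasma cell genes had 2 of 7 positive and a median of -0.59, NK and innate lymphoid genes 4 of 7 and 0.89, E proteins and their Id inhibitors 4 of 5 and 0.57, and stromal and endothelial genes 2 of 4 and 0.28. The NK and innate lymphoid median was -0.05 under a minimum count of 50. The mature B and plasma cell median was -0.14 without control mouse10372 and -0.04 without both mouse10372 and mouse10381. None of these members was called by edgeR. DESeq2 (1.04% of all genes) and the newer edgeR estimator (0.427%) called Id2, a member of the NK and Id lists, higher. DESeq2 called Sdc1, a plasma cell surface gene, lower (0.427% of all genes).

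The genes next in order of p that had no overlap between groups were not called by the main edgeR fit. On the higher side they included Dek, a chromatin protein gene, Slbp, which binds histone mRNA in S phase, Orc6, the scaffold protein gene Iqgap3 and the centromere gene Cenpk. Dek averaged 988.6 ± 176.7 CPM in Mbd3del and 514.4 ± 117.4 CPM in control BLPs, and Slbp 745.6 ± 46.0 and 422.3 ± 81.8 CPM (SD, n = 5 each, edgeR adjusted p = 0.0800 for both). The other 5 were Cdc42bpa, Serpinf1, Tbc1d8, Anxa2 and B3galnt1. All these genes on the higher side were called by DESeq2 and by the newer edgeR estimator. Serpinf1, the gene of the secreted protein PEDF, had 77.6, 112.2, 124.8, 190.8 and 164.7 CPM in Mbd3del BLPs and 26.9, 20.6, 54.1, 7.28 and 16.7 CPM in control BLPs (edgeR adjusted p = 0.0844). Anxa2, a gene for a membrane protein that binds calcium, had a log2 fold change of 2.05 ± 0.42 (SE, edgeR adjusted p = 0.115).

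On the lower side the next genes were Rpp38, Gimap7, Camk1d, Myl4, Mta3, Zfp507, Cdk19, Slc25a37, Gimap6 and Il18rap. Of these, Rpp38, Gimap7, Camk1d, Myl4 and Mta3 were called by both DESeq2 and the newer edgeR estimator. Rpp38, a protein subunit gene of ribonuclease P, had 11.1, 25.1, 18.5, 23.8 and 28.5 CPM in Mbd3del BLPs and 57.8, 59.3, 125.0, 89.8 and 72.6 CPM in control BLPs (edgeR adjusted p = 0.0842). Gimap7 and Gimap6 encode GTPases of lymphocytes. Gimap7 averaged 72.3 ± 23.6 CPM in Mbd3del and 255.6 ± 146.1 CPM in control BLPs, and Gimap6 709.2 ± 145.6 and 1274 ± 278.4 CPM (SD, n = 5 each, edgeR adjusted p = 0.0844 and 0.156). Over the 9 Gimap genes tested, a family chosen after its values were seen, 8 were negative with a median of -0.45. Il18rap, a subunit gene of the interleukin 18 receptor, averaged 129.8 CPM in Mbd3del and 291.1 CPM in control BLPs. DESeq2 and the newer edgeR estimator called 55 genes in common, which is 34.8% of the DESeq2 and 94.8% of the newer edgeR calls, and 13 of the 55 were in the lists used.

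In 4 tested genes 1 genotype stayed below 1 CPM in all 5 BLP libraries while the other stayed above it. Nckap1, Cdc42bpa and Cdk14 were above it in Mbd3del, and Zfp507, a zinc finger gene, in control. Cdc42bpa, a kinase gene of the cytoskeleton, had 7.88, 6.48, 6.56, 22.7 and 14.2 CPM in Mbd3del BLPs and 0, 0, 0.148, 0.383 and 0 CPM in control BLPs (edgeR adjusted p = 0.0807). In control HSCs Nckap1 averaged 72.4 CPM, Cdc42bpa 36.1 CPM, Cdk14 40.4 CPM and Zfp507 6.44 CPM.

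Across the sorted populations, from haematopoietic stem cells (HSCs) through lymphoid-primed multipotent progenitors (LMPPs) and all-lymphoid progenitors (ALPs) to BLPs, the called genes followed different courses. Median Cd63 was 583.1, 253.1, 89.2 and 52.0 CPM in Mbd3del HSCs, LMPPs, ALPs and BLPs, against 479.7, 133.9, 11.9 and 7.05 CPM in the same control populations. It was thus lower at each later stage in both genotypes, and the genotypes lay apart in LMPPs, ALPs and BLPs. Median Cd68 was 177.5, 221.2, 133.9 and 113.8 CPM in the 4 Mbd3del populations and 26.9, 90.1, 57.7 and 22.8 CPM in the control ones, with no overlap between genotypes in any of them. Median Cpq was 240.4, 98.3, 16.8 and 0.579 CPM in Mbd3del and 316.5, 157.0, 70.6 and 21.3 CPM in control populations.

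Median Rrm2 was 28.9, 149.3, 260.3 and 631.0 CPM in Mbd3del HSCs, LMPPs, ALPs and BLPs, against 21.98, 197.4, 166.1 and 176.7 CPM in the control populations. The genotypes overlapped in the first 3 populations and not in BLPs. Median Ly6c2 was 0.180, 0, 11.6 and 128.3 CPM in Mbd3del and 0, 0, 1.39 and 31.4 CPM in control populations, and in ALPs too each Mbd3del library was above each control library. Median Prr13 was 777.6, 497.2, 481.6 and 588.5 CPM in Mbd3del and 928.7, 401.4, 179.7 and 152.7 CPM in control populations. Nckap1 had 83.4, 4.27, 0.159 and 13.1 CPM as Mbd3del medians and 71.7, 0, 0 and 0 CPM as control medians.

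**Figure D5:**
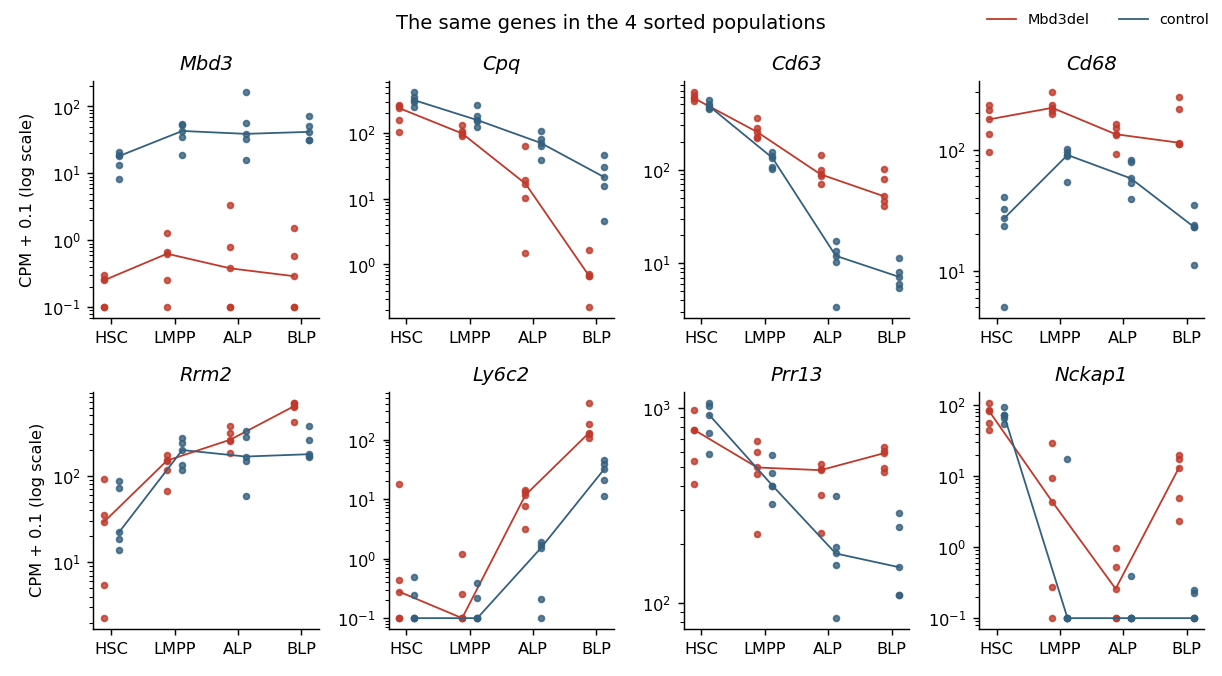
CPM of the 8 called genes in each library of HSCs, LMPPs, ALPs and BLPs on a log scale after adding 0.1, with Mbd3del left of control and lines through the medians. Cd63 and Cpq decline with stage in both genotypes. Ly6c2 appears in ALPs and BLPs, and also in the Mbd3del HSC library of mouse10365 (18.05 CPM). Rrm2 separates the genotypes in BLPs (at least 420.5 CPM in Mbd3del against at most 373.9 CPM in control).

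Whether the genotype effect in BLPs differed from that in the 2 preceding populations was tested as the difference itself. Against ALPs no gene of 12123 passed by edgeR (0% called, 489 or 4.03% at an unadjusted p under 0.05), and with the mouse as a replicate block 0 (412 or 3.4% unadjusted). DESeq2 called 4 higher (0.033%) and 6 lower (0.0495%), and limma voom 1 lower, Lrrc23. For Cd63 the difference was -0.01 ± 0.69 (SE, log2) and for Rrm2 0.94 ± 0.46. The smallest edgeR p values against ALPs belonged to Ppm1k, Lrrc23, Abcg3, Ifi27l2a and Nlrp10 (adjusted p from 0.349 to 0.411).

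Against LMPPs 3 genes had a higher effect in BLPs (0.0247% of 12147) and 2 a lower one (0.0165%), with 950 (7.82%) at an unadjusted p under 0.05. DESeq2 called 52 higher (0.428%) and 22 lower (0.181%). Lgals1, which encodes galectin-1, averaged 622.3 ± 309.1 CPM in Mbd3del and 501.3 ± 321.0 CPM in control BLPs, while Mbd3del LMPPs had 14.1 ± 5.26 CPM and control LMPPs 181.8 ± 71.5 CPM (SD, n = 5 each). The difference of effects was 4.19 ± 0.59 (SE, log2, edgeR adjusted p = 0.00512), and the genotypes overlapped in BLPs and not in LMPPs. Asf1b, a histone chaperone gene of S phase, averaged 399.6 ± 46.2 CPM in Mbd3del and 162.4 ± 105.9 CPM in control BLPs, while Mbd3del LMPPs had 75.6 ± 13.1 CPM and control LMPPs 175.0 ± 49.7 CPM (SD, n = 5 each). Its difference was 2.69 ± 0.47 and that of Rrm2 2.10 ± 0.37 (SE, log2, edgeR adjusted p = 0.0255 for both). Cpq had a difference of -4.20 ± 0.68 (edgeR adjusted p = 0.0184). Scin, an actin-severing protein gene, had -6.51 ± 1.13 (edgeR adjusted p = 0.0255), but was higher in Mbd3del at both stages, at 39.1 and 15.3 CPM in Mbd3del and control BLPs and 12.3 and 0.0309 CPM in Mbd3del and control LMPPs. With the mouse as a replicate block 0 genes passed (942 or 7.76% unadjusted), and the adjusted p of these 5 genes lay between 0.208 and 0.298. Leaving out single libraries gave between 1 gene (control mouse10358 or mouse10380, Mbd3del mouse10360 or mouse10365) and 36 genes (control mouse10357), and Lgals1 kept its call in all 10 fits. The count was 2 without Mbd3del mouse10361 and also 2 without control mouse10372 and mouse10381. Cd63 had a difference of 2.18 ± 0.41 (edgeR adjusted p = 0.0516).

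The position of the called genes relative to Mbd3 was also recorded, since the mice had a mixed background. Within 10 megabases of Mbd3, 184 genes were tested besides it, 10 had an unadjusted p under 0.05 (5.43%) and none was called. On the rest of chromosome 10 these were 25 of 328 genes (7.62%), with 1 call, Cd63 at a distance of 48.5 megabases. On other chromosomes they were 859 of 10259 genes (8.37%), with 6 calls.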

How the data were processed

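Raw counts of reads per gene, not normalized, were deposited by the authors as 1 table of 40 libraries. The submitters' processing notes name STAR (2.5.2b), HTSeq (0.6.1p1) and the build GRCm38; no source used here gives the annotation or strand setting. Of 128910 rows, 49585 genes were used and 79325 repRegion rows (0.280% to 1.19% of BLP counts) were left out. GENCODE M21 gave names and positions for 49326 genes.

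CPM is counts per 1000000 gene counts. Genotypes were compared with edgeR (4.0.16, under R 4.3.3) by its quasi-likelihood test, using TMM scaling, robust estimates and its default filter (at least 10 counts, total 15), with a Benjamini-Hochberg threshold of 0.05. Differences of the genotype effect between populations were tested as interactions. DESeq2 1.42.0, limma 3.58.1 and other settings served as alternatives, and the scripts were tested on simulated data. P-values measure the spread between pools, 1 per mouse, so that variation of mice and of pools cannot be told apart. Mouse numbers pair BLPs with ALPs and LMPPs because the pools come from the same animal; same-mouse deviations correlated at -0.116 to 0.131 with ALPs and at 0.0347 to 0.151 with LMPPs.

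The members and the 31 lists (524 genes) were chosen with earlier results of these data known. Named genes were those called, the next 10 per direction without overlap and at least 5 CPM, list members called, without overlap or of high level, and up to 5 interaction genes per direction. Promoter sequences are from RefSeq (409 of 524 genes matched). Counting intervals are exact, at 95%, and cover counting error only, since amplified reads are not independent molecules. Some list members are not reported here.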

Additional observations from a re-analysis of the deposited data

Results flagged for a closer look

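Genes screened were those called, the next 10 in each direction and the list members without overlap, 52 in all, besides the summed lists. In groups of 5 libraries, a library was picked out when its gap to the nearest one took more than 0.71 of the group's range, which chance gives in about 1 of 20 groups; 17 of 160 groups had one. Mbd3del mouse10376 had 420.5 CPM of Rrm2, below the other 4, and 549.6 CPM of Rfc4, above them. Mbd3del mouse10360 was highest for Ly6c2 (418.0 CPM), Irf8 (1609 CPM) and Fcrla (91.42 CPM). The highest control was mouse10372 for Il7r (1555 CPM) and Lck (654.6 CPM), mouse10380 for Gimap7 (509.6 CPM) and Ddx58 (47.92 CPM), mouse10357 for Pcna (327.4 CPM), Fcgr3 (1.988 CPM) and B3galnt1 (1.223 CPM), mouse10358 for Ccr2 (1.434 CPM) and mouse10381 for Iqgap3 (1.948 CPM). Summed lists stood out for WAVE complex genes (1030 CPM) and interferon response genes (1980 CPM) in Mbd3del mouse10376, and for T lineage and Notch genes (1237 CPM) in Mbd3del mouse10360.

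The genotype effect in BLPs differed from that in LMPPs by edgeR's interaction test for Lgals1 (4.185, log2), Asf1b (2.688), Rrm2 (2.10), Cpq (-4.199) and Scin (-6.506). None of these 5 passed with the mouse as a replicate block.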

How the results depend on the processing

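The number of genes called between Mbd3del and control BLPs was 8, and 3 with no scaling beyond library totals, 22 with no filter, 158 by DESeq2, 3 by limma voom, 58 with the newer edgeR estimator, 31 in a joint fit of all 40 libraries, 20 with age as a covariate, 1 without control mouse10372 and mouse10381, and 4 when Mbd3 was not among the genes fitted. Leaving out 1 library gave 0 to 43 calls. For the effect in BLPs minus ALPs the count of 0 became 10 by DESeq2 and 1 by limma voom, and stayed 0 in all leave-one-out fits. For BLPs minus LMPPs the count of 5 became 9 with no filter, 9 with a minimum count of 50, 74 by DESeq2, 0 by limma voom, 9 with the newer estimator, 2 without control mouse10372 and mouse10381 and 0 with the mouse as a replicate block, and 1 to 36 when 1 library was left out. The replicate block changed no call against ALPs. Without scaling, the median of all genes for BLPs minus LMPPs was -0.18 against -0.06. Called genes kept their direction in every alternative fitted. Of 638 list medians under alternatives, 629 moved by less than 1 SD. In the shallowest library a count of 0 allows a level of up to 0.846 CPM, counting error only.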
